A study of Homo sapiens with 9 samples.

Results

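The mitochondrially encoded genes were taken as every gene of the table whose symbol starts with MT-, which gave 37 of 60662 genes: 13 mRNAs, 2 rRNAs and 22 tRNAs. They were measured by bulk RNA-seq in 9 libraries of SET2, a megakaryoblastic cell line with mutant JAK2 whose label gives AML that followed a myeloproliferative neoplasm. Untreated SET2 cells without editing (WT, n = 3 libraries) were compared with 2 untreated clones with KO of DYRK1A, named 11H1 (n = 3 libraries) and 14B5 (n = 3 libraries), made with a Cas9 ribonucleoprotein and each grown from 1 sorted cell. DYRK1A is a serine/threonine kinase encoded on chromosome 21, and the study used its KO to ask what the kinase contributes to leukemia in blast phase. No clone without an edit was among the samples, so an effect of the KO and a property of the founder cell cannot be told apart within a clone. The study describes 5 KO libraries without naming the one left out, and all 6 were used here. Nothing states whether the libraries of a group came from separate cultures, so P values measure only the spread between these libraries, which may be technical.

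The mitochondrial genome is a circular DNA molecule kept in many copies per cell, and all of its protein products are subunits of the respiratory chain or of ATP synthase. Both strands are transcribed as long polycistronic RNAs, from which tRNAs that lie between the other genes are cut out to release the rRNAs and mRNAs. Most of the mRNAs then receive a poly(A) tail, which in several completes the stop codon, and the tail is known to be lacking or very short in MT-ND6, the mRNA transcribed from the light strand. The rest of each complex, and every protein that copies, transcribes or translates this genome, is encoded in the nucleus.

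A few stretches of the reference show the features on which the measurements below turn (GRCh38, GENCODE v29; 5′ to 3′ on the strand of the gene). All 37 identifiers matched GENCODE v29 with their version, 12 of the mRNAs lay on the plus strand and MT-ND6 on the minus strand. MT-ATP8 (chrM:8366-8572, plus strand) and MT-ATP6 are read from the same mRNA, and the capitals mark the 46 bases that belong to both genes:
MT-ATP8: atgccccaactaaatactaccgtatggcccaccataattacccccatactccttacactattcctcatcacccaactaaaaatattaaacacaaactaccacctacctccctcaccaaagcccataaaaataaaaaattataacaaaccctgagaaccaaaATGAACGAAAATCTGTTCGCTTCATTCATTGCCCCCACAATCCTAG
MT-ND4L (chrM:10470-10766, plus strand) shares an mRNA with MT-ND4 in the same way, and the capitals mark their 7 shared bases:
MT-ND4L: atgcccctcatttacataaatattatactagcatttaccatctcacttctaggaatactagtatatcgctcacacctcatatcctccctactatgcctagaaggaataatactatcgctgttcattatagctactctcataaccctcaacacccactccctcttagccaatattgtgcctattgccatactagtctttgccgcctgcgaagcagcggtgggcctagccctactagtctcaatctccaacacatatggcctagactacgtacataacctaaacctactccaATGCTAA
The first 120 bases of MT-ND6 (chrM:14554-14673, minus strand) are shown because they lie opposite the transcript of the heavy strand, and the capitals mark the start codon:
MT-ND6: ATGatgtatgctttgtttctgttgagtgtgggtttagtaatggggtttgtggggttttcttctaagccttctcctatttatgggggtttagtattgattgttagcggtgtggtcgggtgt
The whole MT-ND6 gene held 7.05% C and 35.6% G, against 29.5% to 36.0% C and 6.28% to 16.2% G in the other mRNAs. The last 60 bases of MT-ND1 (chrM:4203-4262, plus strand) stand for the 6 mRNAs whose coding sequence ends in an incomplete stop codon, here the capitals TA:
MT-ND1: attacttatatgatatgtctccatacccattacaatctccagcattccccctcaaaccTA
The other 7 mRNAs end on a whole codon.

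Library totals ran from 32347779 to 60272245 expected counts. DYRK1A itself was at 193 to 219 CPM (expected counts of a gene scaled to a library total of 1e6) in WT, between 192 and 194 in 11H1 and between 172 and 190 in 14B5, so its mRNA level does not separate WT from 11H1, and a frameshift need not lower an mRNA. Of the megakaryoblastic markers GATA1, GATA2, ITGA2B, TAL1 and KIT were at 225 CPM or more in every library, while CD34 (46.0 to 287 CPM) and GP9 (0.566 to 24.6 CPM) varied between groups. CD34 fell by 1.43 on the log2 scale in 11H1 versus WT and by 2.50 in 14B5 versus WT, with edgeR adjusted P of 1.51e-09 and 9.88e-10. GP9 had a log2FC of -2.39 in 11H1 versus WT (edgeR adjusted P = 3.36e-09) and -4.80 in 14B5 versus WT (edgeR adjusted P = 7.42e-09). Of the 7 markers 2 were higher and 5 lower in 11H1 versus WT, and 2 higher and 4 lower in 14B5 versus WT; the part of this in the mitochondrial values was not tested. CD3E, MS4A1 and CD14, markers of other blood cells, stayed at 0.399 CPM or below, MPO reached 1.52 CPM, and LYZ was present at 103 to 197 CPM, lower in 11H1 than in WT (log2FC = -0.90, edgeR adjusted P = 1.09e-08).

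Mitochondrial RNA took a larger share of every 11H1 library than of any other. A higher share in 11H1 was known from these data when the genes were chosen. Tests of that share below describe it and are not independent support. The 37 genes held 7.25%, 7.23% and 7.39% of the expected counts in the 11H1 libraries, 3.92%, 3.50% and 3.30% in 14B5, and 6.03%, 3.76% and 3.54% in WT. The 3 libraries of 11H1 were close together, 14B5 lay within or just below the range of WT, and WT library 1 stood well above the other WT libraries. Counting error was small, with a widest 95% Wilson half-width of 0.00899 percentage points. This is far less than the distance of 11H1 from the other libraries, and less clearly so for the difference between 11H1 libraries 1 and 2.

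**Figure D1:**
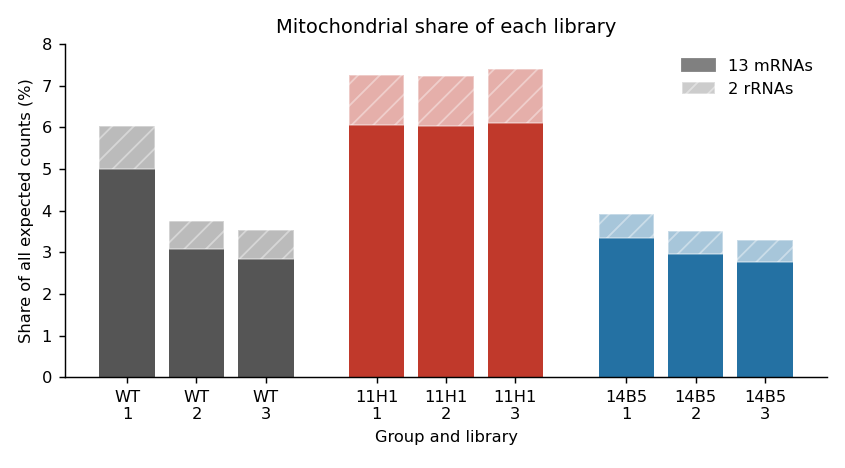
Share of all expected counts (%, bars from 0) taken by the 13 mitochondrial mRNAs (solid) and the 2 rRNAs (hatched) in each of the 9 libraries. The 11H1 libraries reach 7.23% to 7.39%, and WT library 1 at 6.03% stands above the other WT libraries.

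The mean share was 7.29% ± 0.0885 (SD, n = 3) in 11H1, 3.57% ± 0.317 (SD, n = 3) in 14B5 and 4.44% ± 1.38 (SD, n = 3) in WT. 11H1 exceeded WT by 2.85 percentage points and its libraries did not overlap WT, with P = 0.1 in a 2-sided exact permutation test, the smallest value that 3 libraries against 3 allow (adjusted P = 0.178 over the 16 tests of shares). 11H1 exceeded 14B5 by 3.71 points, again without overlap (exact permutation P = 0.1, adjusted P = 0.178). 14B5 differed from WT by -0.869 points and overlapped it (exact permutation P = 0.4, adjusted P = 0.498), a difference that was -0.0768 points without WT library 1 and -1.32 points without WT library 3. With both clones taken as 1 KO group the difference from WT was 0.988 points (exact permutation P = 0.405, adjusted P = 0.498), with the 6 KO libraries lying on both sides of WT, and it was 1.78 points without WT library 1 and 0.537 points without WT library 3. Fewer cells of a type and less RNA per cell cannot be told apart in bulk samples. Shares are relative and the spike-in controls were at 0, so more mitochondrial RNA and less nuclear RNA per cell cannot be told apart either.

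Most of the share was mRNA in all groups. The mRNAs held 6.06%, 6.03% and 6.10% of the counts in 11H1, 3.35%, 2.95% and 2.77% in 14B5, and 5.0%, 3.07% and 2.85% in WT. The rRNAs, 12S MT-RNR1 and 16S MT-RNR2 of the mitochondrial ribosome, held 1.19%, 1.20% and 1.29% in 11H1, 0.571%, 0.549% and 0.527% in 14B5, and 1.03%, 0.690% and 0.694% in WT. For the rRNAs alone all 3 groups were apart, with 14B5 below WT by 0.255 points (-0.255; exact permutation P = 0.1, adjusted P = 0.178). Within the mitochondrial counts the rRNAs took 17.1% to 19.6% in WT, 16.4% to 17.5% in 11H1 and 14.6% to 16.0% in 14B5. The library kits named by the labels and by the study's methods are for mRNA, so the split between rRNA and mRNA is not a measure of their amounts in the cell.

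Levels of different genes were compared as CPM per 1000 bases of gene. The mRNAs of cytochrome c oxidase, the last enzyme of the respiratory chain, led in every group: MT-CO1 at 10192 ± 13.2 (SD, n = 3), MT-CO2 at 9998 ± 253 and MT-CO3 at 9413 ± 343 CPM per 1000 bases in 11H1. MT-ND6 was lowest in every group, at 436 ± 75.2 in 11H1, 94.1 ± 12.9 in 14B5 and 127 ± 73.1 CPM per 1000 bases in WT (SD, n = 3), and no library of MT-ND6 reached the gene ranked above it. MT-CO1 had rank 1 in 11H1 and rank 3 in 14B5 and WT, behind MT-CO2 and MT-CO3. Its libraries overlapped those of MT-CO2 in 11H1 and those of MT-CO3 in 14B5 and in WT. Of the 14 pairs of neighbours in the order, libraries overlapped in 6 in 11H1, 9 in 14B5 and 13 in WT. These overlaps compare ranges over libraries whose pools differ in size. Within WT library 1, MT-RNR2 and MT-ND4, MT-ND3 and MT-CYB, and MT-RNR1 and MT-ATP8 changed places. The other WT neighbours kept their order in each WT library, though by little in some. Between the rRNAs, which are cut from the same precursor, MT-RNR2 was 3.64 to 3.80 times MT-RNR1 per length in 11H1 and 3.65 to 3.85 times in WT. In 14B5 the ratio was 3.72, 4.34 and 3.62, with library 2 apart.

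**Figure D2:**
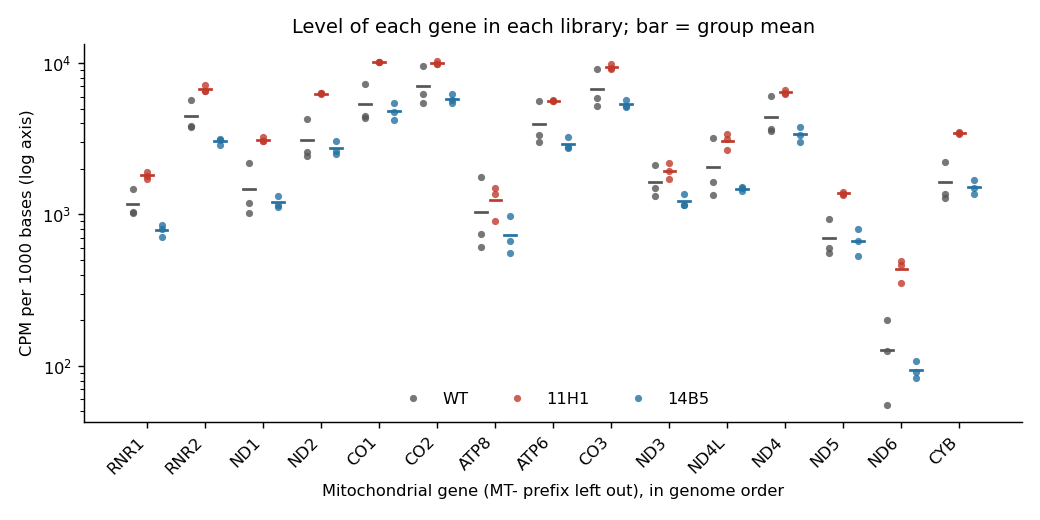
CPM per 1000 bases (log axis) of the 13 mRNAs and 2 rRNAs in each library (points) with the group mean (bars), in genome order. The 11H1 points lie together at or above the highest WT point for most genes, and MT-ND6 is lowest in every group.

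For the comparison of 11H1 with WT, 12 of the 15 genes that passed the filter on low counts rose in 11H1, none fell, and MT-ATP8, MT-ND3 and MT-ND4L did not pass the test. Passing means an adjusted P below 0.05 in edgeR over all 16675 genes tested. In this comparison 64.6% of all genes passed, 31.8% of them higher and 32.8% lower in 11H1, where the percentages are of all genes tested. The median log2FC over the 15 genes was 0.58, against -0.01 over all genes. Because the higher share of 11H1 was known when the genes were chosen, these calls are not independent support for it. Scaled on the mitochondrial total of each library, only 1 of the 15 genes was called. No tRNA passed the filter in any comparison.

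Complex I takes electrons from NADH at the entry of the chain, and 7 of the mRNAs encode parts of its membrane arm. MT-ND1 was at 2097, 1142 and 976 CPM in WT and 3098, 2913 and 2930 CPM in 11H1. All 11H1 libraries were above all WT libraries, and MT-ND1 rose 2.08-fold (log2FC = 1.06, SE 0.22, edgeR adjusted P = 0.00109). MT-ND2 was at 4426, 2688 and 2528 CPM in WT and 6630, 6474 and 6555 CPM in 11H1. It too was apart, with a rise of 2.0-fold (log2FC = 1.0, SE 0.17, edgeR adjusted P = 0.000259). MT-ND5 was at 1696, 1014 and 1083 CPM in WT and 2565, 2473 and 2451 CPM in 11H1, a rise of 1.94-fold without overlap (edgeR adjusted P = 0.000196). MT-ND4 rose less, by 1.42-fold, from 8325, 5042 and 4873 CPM to 9097, 8772 and 8593 CPM (edgeR adjusted P = 0.0173).

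MT-ND6 showed the largest change of the 15 genes in 11H1. It was at 106, 65.6 and 29.2 CPM in WT and at 184, 245 and 258 CPM in 11H1. The groups did not overlap although the WT libraries were widely spread, and the rise was 3.33-fold (log2FC = 1.74, SE 0.32, edgeR adjusted P = 0.000521). The short mRNAs MT-ND3 and MT-ND4L overlapped WT through its library 1. MT-ND3 was at 728, 517 and 459 CPM in WT and 592, 672 and 758 CPM in 11H1 (log2FC = 0.22, edgeR adjusted P = 0.207). MT-ND4L had a log2FC of 0.55 (edgeR adjusted P = 0.0694).

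MT-CYB, cytochrome b and the only mitochondrially encoded part of complex III, was at 2546, 1559 and 1462 CPM in WT and 3993, 3909 and 3895 CPM in 11H1. It rose 2.08-fold without overlap (log2FC = 1.06, SE 0.17, edgeR adjusted P = 0.000158). Of the complex IV subunits MT-CO1 stood out, at 11219, 6939 and 6680 CPM in WT and 15709, 15739 and 15700 CPM in 11H1. Its 11H1 libraries were nearly the same and well above WT, with a rise of 1.86-fold (log2FC = 0.90, SE 0.16, edgeR adjusted P = 0.000383). MT-CO2 rose 1.38-fold (log2FC = 0.47, SE 0.16, edgeR adjusted P = 0.0228), and MT-CO3 rose 1.37-fold (log2FC = 0.46, SE 0.17, edgeR adjusted P = 0.0297). MT-CO3 at 7163 CPM in 11H1 library 1 was just under the 7196 CPM of WT library 1.

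MT-ATP6, part of the proton channel of ATP synthase (complex V), rose 1.39-fold (log2FC = 0.48, edgeR adjusted P = 0.0342), from 3798, 2264 and 2052 CPM to 3885, 3837 and 3801 CPM. MT-ATP8, read from the same mRNA, was at 366, 153 and 125 CPM in WT and 187, 281 and 308 CPM in 11H1 and did not pass the test (log2FC = 0.23, edgeR adjusted P = 0.547). The rRNAs rose alike, MT-RNR1 by 1.51-fold (log2FC = 0.60, SE 0.12, edgeR adjusted P = 0.00111) and MT-RNR2 by 1.49-fold (log2FC = 0.58, SE 0.13, edgeR adjusted P = 0.0024).

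The number of calls moved with single libraries. On the TMM-scaled CPM of the fit, libraries were apart for 8 of the 15 genes, against 68.6% of all genes tested, and all 7 overlaps came from WT library 1 (for MT-ATP6, MT-CO2 and MT-ND4 they vanish on CPM of total counts). Without WT library 1 all 15 genes rose in 11H1, and MT-ND4L (log2FC = 1.02), MT-ATP8 (0.88) and MT-ND3 (0.45) were then past the threshold. Without WT library 2 or without 11H1 library 1, 8 genes rose. Calls for MT-ATP6, MT-CO2, MT-CO3 and MT-ND4 were the ones that went, and the DESeq2 Wald test also called 8 genes without these 4.

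For 14B5 and WT the picture was different, with 3 genes lower in 14B5 and none higher among the 15. Over all genes 53.5% passed the test in this comparison, 24.9% higher and 28.7% lower in 14B5. The 14B5 and 11H1 comparisons share the WT libraries, so they are given side by side and are not independent. The median log2FC of the 15 genes was -0.40, against -0.01 over all genes, and all 15 values were below 0, of which 12 did not pass the test.

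The rRNAs were the clearest members in 14B5. MT-RNR1 was at 1410, 990 and 974 CPM in WT and 808, 679 and 763 CPM in 14B5. MT-RNR2 was at 8878, 5909 and 5970 CPM in WT and 4906, 4813 and 4512 CPM in 14B5. Both were lower in every 14B5 library than in any WT library, the only members of which this held, against 60.3% of all genes whose libraries were apart. MT-RNR1 fell by 0.60 on the log2 scale (SE 0.14, edgeR adjusted P = 0.0047), and MT-RNR2 fell by 0.56 (SE 0.14, edgeR adjusted P = 0.0083). MT-ND3 was called lower (log2FC = -0.44, SE 0.15, edgeR adjusted P = 0.036), at 400, 399 and 471 CPM against 728, 517 and 459 CPM, with overlap between 14B5 library 3 and WT library 3. That call was lost without WT library 1 (log2FC = -0.20, edgeR adjusted P = 0.0804), and also without 14B5 library 1 or 2.

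The other members did not pass the test in 14B5. MT-ND5 was at 1452, 1206 and 969 CPM against 1696, 1014 and 1083 CPM in WT (log2FC = -0.08, edgeR adjusted P = 0.759). MT-CYB had a log2FC of -0.12 (edgeR adjusted P = 0.632) and MT-CO1 of -0.17 (edgeR adjusted P = 0.465). MT-ND6 was at 47.6, 43.7 and 56.9 CPM (log2FC = -0.46, edgeR adjusted P = 0.292), inside the WT range of 29.2 to 106 CPM. This count moved with WT library 3. Without it 9 genes were lower in 14B5, MT-ATP6, MT-CO2, MT-CO3, MT-ND4, MT-ND4L and MT-ND6 joining the 3, with MT-ND6 at a log2FC of -0.80 (edgeR adjusted P = 0.00396).

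Set against each other, the clones differed at every one of the 15 genes, all higher in 11H1. The clones were compared because their mitochondrial share was known beforehand to differ, so these calls are not independent support for that difference. In this comparison 63.7% of all 16352 genes tested passed, 31.6% higher and 32.1% lower in 11H1. The log2FC ran from 0.64 for MT-ND3 to 2.18 for MT-ND6, with a median of 1.02, against 0.00 over all genes (-0.0044). Libraries were apart for 14 of the 15 genes, against 68.4% of all genes, and MT-ATP8 overlapped (138, 116 and 201 CPM in 14B5). This comparison does not use WT, and the 15 calls held without each of its 6 libraries in turn. MT-ATP8 alone was no longer called by the DESeq2 Wald test (adjusted P = 0.0509) or in the edgeR fit of all 3 groups (adjusted P = 0.0804). They depend on the scale. Scaled on the mitochondrial total of each library, which shifts the median log2FC of all genes from 0.00 to -1.01, MT-ND6, MT-ND1, MT-ND2 and MT-CYB were higher and MT-CO2, MT-CO3 and MT-ND3 lower in 11H1.

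MT-ND6 differed most between the clones, 4.54-fold (log2FC = 2.18, SE 0.12, edgeR adjusted P = 4.86e-08). MT-ND1 was at 3098, 2913 and 2930 CPM in 11H1 and 1269, 1096 and 1078 CPM in 14B5, a difference of 2.55-fold (edgeR adjusted P = 6.23e-09). The rRNAs followed at 2.27-fold for MT-RNR1 and 2.18-fold for MT-RNR2, close to MT-ND2 (2.26-fold) and MT-CYB (2.23-fold). MT-CO2 and MT-CO3 differed less, at 1.69-fold and 1.73-fold.

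With the clones pooled, none of the 15 genes passed edgeR in KO versus WT, where 32.0% of all 17080 genes did (14.3% higher and 17.7% lower). None was below an unadjusted P of 0.05, and the DESeq2 Wald test called 0. The log2FC ran from -0.09 for MT-ATP8 to 1.03 for MT-ND6 (SE 0.68, edgeR adjusted P = 0.282), and libraries overlapped for all 15 genes, against 36.6% of all genes whose libraries were apart. The log2FC against WT was above 0 at all 15 genes in 11H1 and below 0 at all 15 in 14B5, and this difference enters the pooled comparison as spread within the KO group. In a fit that kept the clones as separate groups and averaged them, 4 of the 15 genes were higher, MT-CO1, MT-CYB, MT-ND2 and MT-ND5. Of all 17080 genes 10245 passed in that fit in either direction. Its P values rest on the spread of libraries within a group, so they do not measure the spread between KO clones. In 14B5 versus WT the log2FC of these 4 genes was -0.17, -0.12, -0.19 and -0.08, so the higher average came from 11H1.

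**Figure D3:**
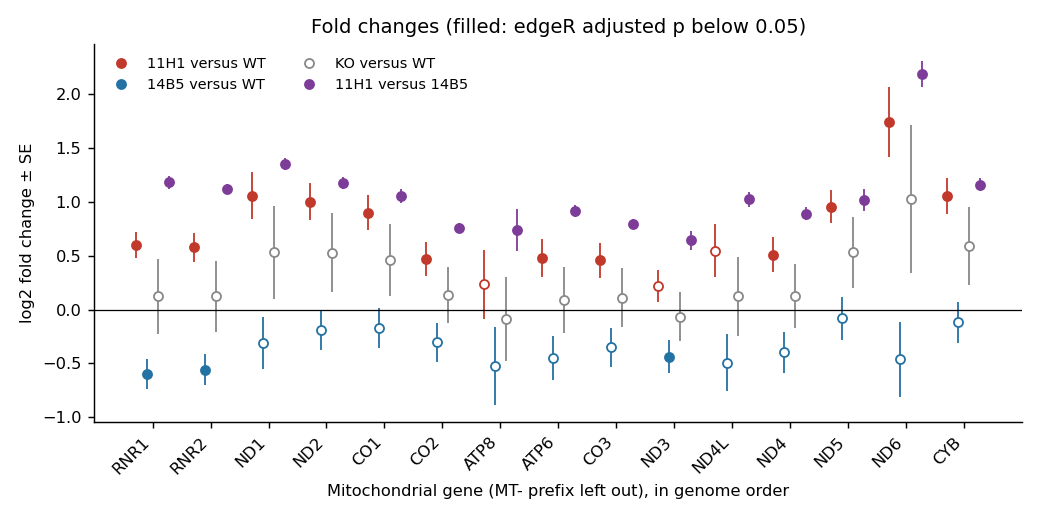
log2 fold change ± SE (edgeR) of the 15 genes in genome order for 4 comparisons; filled points have an adjusted P below 0.05. All 15 values are above 0 in 11H1 versus WT and in 11H1 versus 14B5, all are below 0 in 14B5 versus WT, and the KO versus WT points are open.

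The composition of the mitochondrial mRNA pool was then examined as the share of each gene in the summed counts of the 13 mRNAs, a measure that the size of the pool does not enter. These shares sum to 100% in each library, so a rise of some forces a fall of others. In 11H1 a group of mRNAs took more of the pool than in WT without overlap: MT-CO1, MT-CYB, MT-ND1, MT-ND2, MT-ND5 and MT-ND6, 6 of 13. Another 5 took less, MT-ATP6, MT-CO2, MT-CO3, MT-ND3 and MT-ND4. All 52 exact permutation tests of these shares had adjusted P values of 0.168 or more, and 3 libraries against 3 cannot go below P = 0.1. Lack of overlap was common: on TMM-scaled CPM, another measure, libraries were apart for 68.6% of all genes in 11H1 versus WT.

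WT library 1, which stood apart in the size of its pool, was close to the other WT libraries in MT-CYB, MT-ND2 and MT-CO1. It was less close in MT-ATP8 (0.731% of the pool against 0.497% and 0.440%), MT-ND1 (4.19% against 3.72% and 3.43%) and MT-ND4L (1.89% against 1.59% and 1.40%). MT-CYB held 5.09%, 5.08% and 5.13% of the pool in WT, 6.59%, 6.48% and 6.39% in 11H1, and 5.78%, 5.74% and 5.62% in 14B5. The 3 groups of MT-CYB were apart, and both clones lay above WT. MT-ND2 behaved in the same way, with 8.85%, 8.75% and 8.88% in WT, 10.9%, 10.7% and 10.8% in 11H1, and 9.45%, 9.31% and 9.48% in 14B5. MT-CO1, the largest part of the pool, held 22.4%, 22.6% and 23.5% in WT, 25.9%, 26.1% and 25.8% in 11H1, and 25.2%, 24.9% and 23.6% in 14B5. MT-ATP6 went the other way, with 7.60%, 7.37% and 7.21% in WT, 6.41%, 6.36% and 6.23% in 11H1, and 6.63%, 6.34% and 6.89% in 14B5.

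In the pooled KO group these shares were apart from WT in all 6 libraries for MT-CO1, MT-CYB and MT-ND2, which were higher, and for MT-ATP6 and MT-ND4, which were lower. Each had P = 0.0238, the smallest that this 2-sided exact permutation test gives for 6 libraries against 3, and an adjusted P of 0.168. The test and the SDs below treat the 6 KO libraries as independent, although they come from only 2 clones. The mean share of MT-CYB was 6.10% ± 0.431 (SD, n = 6) in KO and 5.10% ± 0.0290 (SD, n = 3) in WT. MT-ND2 was at 10.1% ± 0.771 and 8.83% ± 0.0646, and MT-CO1 at 25.2% ± 0.943 and 22.8% ± 0.548. MT-ND4 was at 15.0% ± 0.615 in KO and 16.7% ± 0.353 in WT. The sizes are modest beside the difference in pool size between the clones, from 1.20 times for MT-CYB to 0.876 times for MT-ATP6. The shares of the other 8 of 13 mRNAs overlapped. On TMM-scaled CPM, another measure, libraries were apart for 36.6% of all genes in KO versus WT.

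Between the clones the shares of MT-CO1, MT-CYB, MT-ND1, MT-ND2 and MT-ND6 were higher in 11H1 and those of MT-CO2 and MT-CO3 lower, all without overlap, and 6 genes overlapped. On TMM-scaled CPM, another measure, libraries were apart for 68.4% of all genes in this comparison. MT-CO2 held 11.1%, 11.2% and 11.5% in 11H1 and 12.8%, 13.1% and 13.5% in 14B5. MT-CO3 held 11.8%, 12.1% and 12.6% in 11H1 and 13.4%, 13.8% and 14.4% in 14B5. So within complex IV the subunit mRNAs went in opposite directions relative to the pool, although the level of each was higher in 11H1 than in 14B5.

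**Figure D4:**
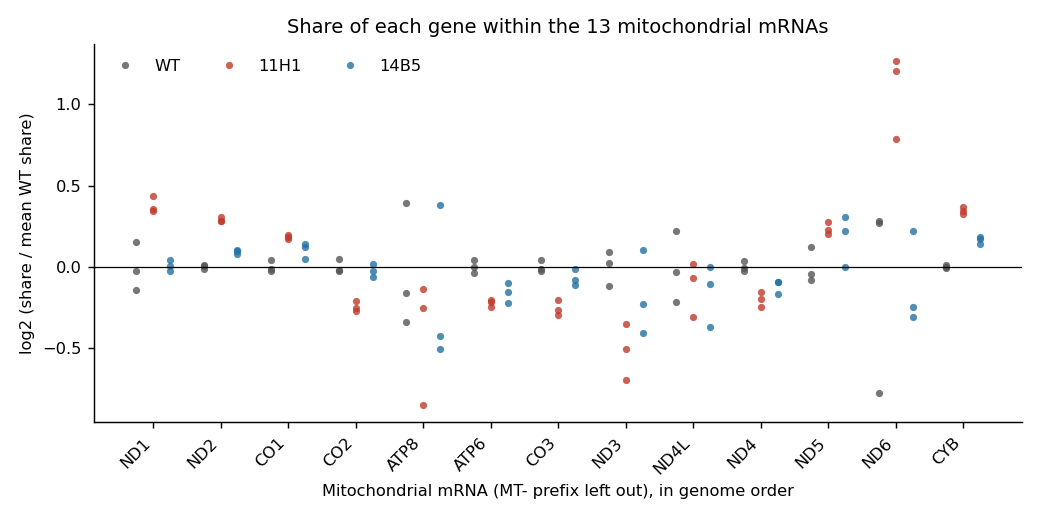
Share of each mRNA within the 13 mitochondrial mRNAs, as log2 of the ratio to the mean WT share, in each library (points coloured by group). MT-CYB and MT-ND2 are tight within groups and higher in both clones, MT-ND6 is higher in 11H1, and the short mRNAs MT-ATP8 and MT-ND3 spread widely within groups.

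MT-ND6 had the largest ratio between shares in the comparisons of 11H1 with WT and with 14B5. It held 0.212%, 0.214% and 0.102% of the pool in WT, 0.304%, 0.406% and 0.423% in 11H1, and 0.142%, 0.148% and 0.205% in 14B5. Set against the 12 mRNAs of the other strand, it had 3.05, 4.08 and 4.25 counts per 1000 counts in 11H1, 1.42, 1.48 and 2.06 in 14B5, and 2.12, 2.14 and 1.03 in WT. The 11H1 libraries were above all others, by 2.15 times the WT mean (exact permutation P = 0.1, adjusted P = 0.178) and 2.29 times the 14B5 mean (exact permutation P = 0.1, adjusted P = 0.178). With all genes scaled on the mitochondrial total, MT-ND6 was the only member past the edgeR threshold in 11H1 versus WT (log2FC = 1.12, adjusted P = 0.000726), and that scaling moved the median of all genes to -0.78.

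The count of MT-ND6 rests on the strand of each read, since the heavy-strand transcript runs over the same bases. The labels name a SMARTER mRNA kit and the study's methods a stranded mRNA kit, and the strand setting of the counting is not given in the sources used here. If strand was not used, reads of MT-ND6 and of its antisense transcript cannot be told apart. Its high G content and its tail also set it apart from the other mRNAs in a poly(A) library. A list of 15 other RNAs known to have no poly(A) tail or to be mostly without it (replication-dependent histone mRNAs and transcripts of RNA polymerase III) moved with it in part. That list held 0.0211%, 0.0229% and 0.0239% of the counts in 11H1, 0.00852%, 0.00811% and 0.00738% in WT, and 0.0111%, 0.0120% and 0.0215% in 14B5. In 11H1 versus WT 12 of its 14 tested members were higher and none lower (median log2FC = 1.18), where 31.8% of all genes were higher. In 14B5 versus WT 7 of 13 were higher and 1 lower (median 1.31), where 24.9% of all genes were higher and MT-ND6 did not pass the test. In 11H1 versus 14B5 7 of 15 were higher and 3 lower (median 0.15), where 31.6% of all genes were higher and 32.1% lower. The part of poly(A) selection in the MT-ND6 result was not tested.

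The mRNAs that carry 2 reading frames were compared frame by frame. MT-ATP8 per length was 0.158, 0.241 and 0.267 of MT-ATP6 in 11H1, 0.205, 0.204 and 0.346 in 14B5, and 0.317, 0.222 and 0.201 in WT. MT-ND4L per length was 0.405, 0.495 and 0.541 of MT-ND4 in 11H1, 0.373, 0.447 and 0.506 in 14B5, and 0.527, 0.448 and 0.379 in WT. Genes on 1 RNA thus differed per length, and the ratios of the 3 groups overlapped. What sets these ratios was not tested.

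The tRNAs were almost unmeasured. Of 22 tRNA genes, 17 were at 0 in every library, and the other 5 had 10 counts in all. MT-TF, the tRNA for phenylalanine, had 6 counts over 5 libraries, and MT-TA, MT-TC, MT-TM and MT-TV had 1 count each. The upper limit behind such a 0 is 3 counts, which is 0.0498 CPM in the largest library and 0.0927 CPM in the smallest, for counting error alone. Mature tRNAs of 59 to 75 bases without a long tail are poorly captured by such libraries, so these values say nothing of how much tRNA the cells held, and no comparison was made.

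Nuclear copies of mitochondrial DNA share reads with some members. The table lists 394 such pseudogenes, of which 25 had counts, and together they came to 0.774% to 0.978% of the mitochondrial counts in each library. The 4 largest were MTATP6P1, MTND2P28, MTCO1P12 and MTCO3P12, neighbours on chromosome 1 (MTATP6P1 at chr1:633696-634376 in GRCh38). MTND2P28 and MTCO1P12 rose with their parents in 11H1 versus WT, with log2FC of 1.22 (edgeR adjusted P = 8.38e-05) and 0.99 (edgeR adjusted P = 0.000865). MTATP6P1 (log2FC = 0.32, edgeR adjusted P = 0.256) and MTCO3P12 (log2FC = 0.07, edgeR adjusted P = 0.901) did not pass, although MT-ATP6 and MT-CO3 did. Expected counts of MT-ND1, MT-ND2, MT-CO1, MT-ATP6 and MT-CO3 were not whole numbers in any library, as happens when reads are divided among copies, while MT-CO2 had whole counts in 7 libraries and the other 9 genes in all 9. Adding the copies to their parents left the counts of members called at 12, 3, 0 and 15.

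Nuclear-encoded subunits of the same complexes moved the other way in 11H1. Of 75 nuclear genes for complexes I to V, 65 fell and none rose in 11H1 versus WT (median log2FC = -0.40), and 63 fell and none rose in 11H1 versus 14B5 (median -0.34). In 14B5 versus WT 3 rose and 15 fell (median -0.08), and in KO versus WT 15 fell and none rose (median -0.21). The fractions stand against 32.8%, 32.1%, 28.7% and 17.7% of all genes that were lower in those comparisons.

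In complex I, NDUFS6 (log2FC = -0.75, edgeR adjusted P = 9.46e-07) and NDUFA2 (-0.75, edgeR adjusted P = 1.14e-05) fell most in 11H1 versus WT, while 30 of 37 genes fell in all. In complex III, CYC1, which encodes cytochrome c1, fell (log2FC = -0.68, edgeR adjusted P = 7.48e-06), as did all 9 nuclear genes of the list. In complex IV 9 of 10 fell, with COX5B at -0.69 (edgeR adjusted P = 1.79e-05). In complex V 13 of 15 fell, with ATP5MC3, a c-ring gene, at -0.60 (edgeR adjusted P = 1.95e-05). All 4 genes of complex II, which has no mitochondrially encoded part, fell too, SDHA most (log2FC = -1.27, edgeR adjusted P = 1.04e-09). SDHA was also lower in 14B5 than in WT (log2FC = -0.86, edgeR adjusted P = 1.62e-07).

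The ratio of summed mitochondrial to summed nuclear counts of a complex, which is read across groups only, was thus highest in 11H1 for each complex. For complex I it was 10.5, 9.35 and 9.48 in 11H1, 4.58, 3.95 and 3.37 in 14B5, and 6.22, 3.76 and 4.0 in WT. For complex III it was 4.15, 3.70 and 3.80 in 11H1, 1.64, 1.41 and 1.17 in 14B5, and 1.72, 1.10 and 1.13 in WT. For complex IV the means were 30.7 ± 2.01 in 11H1, 12.8 ± 2.41 in 14B5 and 13.4 ± 3.18 in WT (SD, n = 3). For complex V they were 1.22 ± 0.0523, 0.521 ± 0.0529 and 0.690 ± 0.241 (SD, n = 3). In all 4 complexes the 11H1 libraries lay above every other library, and the 14B5 and WT libraries overlapped.

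**Figure D5:**
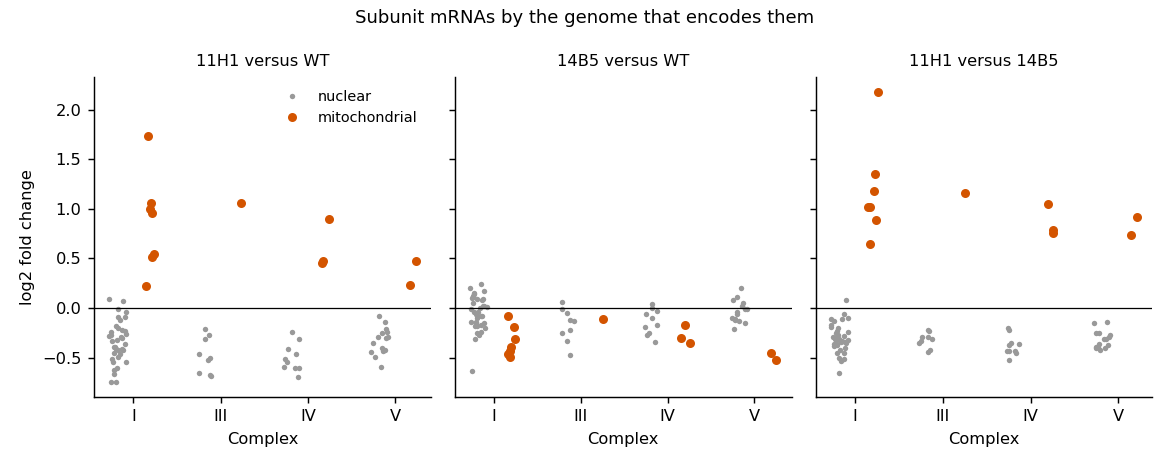
log2 fold change (edgeR) of the nuclear (grey) and mitochondrially encoded (orange) subunit genes of complexes I, III, IV and V in 3 comparisons; each point is a gene and its sideways position within a complex has no meaning. In 11H1 the orange points lie above 0 and nearly all grey points below, and in 14B5 versus WT both lie near or below 0.

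Genes that express the mitochondrial genome were called in both directions in every comparison. Of 81 tested nuclear genes in 9 lists, from mtDNA replication to mitochondrial translation, 28 rose and 28 fell in 11H1 versus WT (median log2FC = -0.04), 26 rose and 9 fell in 14B5 versus WT (median 0.06), and 12 rose and 38 fell in 11H1 versus 14B5 (median -0.11). With the clones pooled, 17 rose and 6 fell. Over all genes 31.8% rose and 32.8% fell in 11H1 versus WT, 24.9% and 28.7% in 14B5 versus WT, 31.6% and 32.1% in 11H1 versus 14B5, and 14.3% and 17.7% with the clones pooled, so the 11H1 counts against WT are near those of any genes. Of the 5 genes of the transcription machinery none passed edgeR in 11H1 versus WT, where 64.6% of all genes did, and TFAM and MTERF1 rose in 14B5 versus WT (MTERF1 log2FC = 0.18, edgeR adjusted P = 0.013). POLRMT, the mitochondrial RNA polymerase, had a log2FC of 0.01 (edgeR adjusted P = 0.92), and TFB2M, which melts the promoter with it, had -0.05 (edgeR adjusted P = 0.501). TEFM, the elongation factor, had a log2FC of 0.01 (edgeR adjusted P = 0.893). TFAM, which packs mtDNA and bends the promoter, was at 0.07 in 11H1 versus WT (edgeR adjusted P = 0.262), rose in 14B5 versus WT (log2FC = 0.28, edgeR adjusted P = 0.00235), and was lower in 11H1 than in 14B5 (log2FC = -0.23, edgeR adjusted P = 0.00124).

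Several genes of RNA stability and mtDNA upkeep did differ, in both directions. Among 12 genes of mtDNA upkeep 6 rose and 4 fell in 11H1 versus WT, and 4 rose and 2 fell in 14B5 versus WT. Among 6 genes of mRNA stability and decay 3 rose and 2 fell in 11H1 versus WT. Over all genes 31.8% rose and 32.8% fell in 11H1 versus WT, and 24.9% and 28.7% in 14B5 versus WT. LRPPRC and SLIRP, partners in a complex that stabilizes mitochondrial mRNAs, fell in 11H1 versus WT by 0.18 (edgeR adjusted P = 0.00799) and 0.48 (edgeR adjusted P = 0.00183) on the log2 scale. MTPAP, the mitochondrial poly(A) polymerase, rose in 11H1 (log2FC = 0.20, edgeR adjusted P = 0.00196) and in 14B5 (log2FC = 0.25, edgeR adjusted P = 0.00111). TWNK, the helicase of mtDNA replication, rose in 11H1 versus WT (log2FC = 0.43, edgeR adjusted P = 2.7e-05) and was higher in 11H1 than in 14B5 (log2FC = 0.33, edgeR adjusted P = 0.000398). POLG, the catalytic subunit of the mtDNA polymerase, did not pass the test in 11H1 (log2FC = -0.11, edgeR adjusted P = 0.055) and fell in 14B5 (log2FC = -0.27, edgeR adjusted P = 0.0463). TOP1MT, the mitochondrial topoisomerase I, fell in 11H1 (log2FC = -0.87, edgeR adjusted P = 7.96e-08) and in 14B5 (log2FC = -0.85, edgeR adjusted P = 3.64e-07). No measure of mtDNA copy number was among the data, so levels of these transcripts per template are unknown.

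In each clone 2 of the 5 tested nuclear regulators rose and 1 fell against WT. The shares of all genes were 31.8% higher and 32.8% lower in 11H1, and 24.9% and 28.7% in 14B5. PPRC1, a coactivator of the PGC-1 family, rose in 11H1 (log2FC = 0.73, edgeR adjusted P = 1.3e-07) and less in 14B5 (log2FC = 0.23, edgeR adjusted P = 0.00221). PPARGC1B, of the same family, was lower in 14B5 than in WT (log2FC = -0.92, edgeR adjusted P = 1.28e-06) and higher in 11H1 than in 14B5 (log2FC = 0.79, edgeR adjusted P = 3.55e-06). GABPA, a subunit of NRF-2, fell in 11H1 versus WT (log2FC = -0.30, edgeR adjusted P = 0.00162). NRF1, a transcription factor of many nuclear subunit genes, rose in 11H1 (log2FC = 0.25, edgeR adjusted P = 0.00745) and in 14B5 (log2FC = 0.36, edgeR adjusted P = 0.000913).

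The remaining lists are given beside 31.8% of all genes higher and 32.8% lower in 11H1 versus WT, and 24.9% and 28.7% in 14B5 versus WT. Of 17 mitochondrial tRNA synthetases 5 rose and 7 fell in 11H1 versus WT, and the largest changes were falls of WARS2 (log2FC = -0.71, edgeR adjusted P = 1.34e-07), IARS2 (-0.49, edgeR adjusted P = 5.1e-06) and FARS2 (-0.42, edgeR adjusted P = 0.000158). WARS2 fell in 14B5 as well (log2FC = -0.48, edgeR adjusted P = 2.03e-05), where 4 of the synthetases rose and 4 fell. Of 8 genes for tRNA modification and end addition 5 rose and 2 fell in 11H1, led by TRMU, which thiolates the wobble base of some tRNAs (log2FC = 0.68, edgeR adjusted P = 4.3e-06), and none was called in 14B5 versus WT. Of 12 genes for transcript cleavage and polyadenylation 3 rose and 6 fell in 11H1, with PRORP, the protein that cuts the 5′ ends of tRNAs, lower by 0.41 (log2FC = -0.41, edgeR adjusted P = 6.97e-06). Of 10 translation factors 2 rose and 5 fell in 11H1, TUFM, the elongation factor Tu of mitochondria, by the largest amount (log2FC = -0.43, edgeR adjusted P = 3.36e-05). Of 6 genes for rRNA modification 2 rose and 1 fell in 11H1, and 3 rose in 14B5, where MRM2, which methylates the 16S rRNA, was at a log2FC of 0.32 (edgeR adjusted P = 0.000315). Of 6 genes for mRNA stability and decay 3 rose and 2 fell in 11H1, and 4 rose in 14B5, led by REXO2, which degrades short RNAs (log2FC = 0.36, edgeR adjusted P = 0.00014).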

How the data were processed

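Poly(A) RNA-seq of 9 SET2 libraries (WT, 11H1 and 14B5, n = 3 each) was analysed from the gene table that the authors deposited, which holds RSEM expected counts per gene without normalization for depth or length. Per the labels, reads were processed with STAR 2.7.9a, Picard and RSEM on GRCh38; the version of RSEM, the annotation release and the strand setting are not given in the sources used here. RSEM divides a read that matches several genes among them, which is why members with nuclear copies carry fractions. The table held 60754 entries, of which 92 spike-in controls at 0 were left out; every column was mapped to a sample (0 left out). Groups came from the sample titles. Library totals ran from 32347779 to 60272245 expected counts.

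Expected counts were rounded and tested across all genes with edgeR 4.0.16 (TMM, filterByExpr, quasi-likelihood F test, Benjamini-Hochberg, threshold 0.05) in R 4.3.3, and the rows of the mitochondrial genes were read from these fits. The paper used DESeq2, here an alternative. Shares were tested with 2-sided exact permutation tests (scipy 1.17.1), and their intervals (95%, Wilson) cover the counting of reads and not of molecules, as no molecular identifiers are described. Values called whole lay within 0.005 of a whole number. Alternatives were DESeq2 1.42.0 size factors and Wald test, total counts, scaling on nuclear genes or on the mitochondrial total, limma-voom (limma 3.58.1), other filters, nuclear copies added, a 3-group fit, the replicate number as a block, other denominators of the share, and each library left out.

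All mRNAs and rRNAs were named; of other lists, the 3 largest changes past the threshold with a mean of at least 1 CPM could be named, of the copies the 4 largest, of the tRNAs those with counts, and POLRMT, TFAM, TFB2M, TEFM, LRPPRC, SLIRP, MTPAP, TWNK and POLG always. The members and lists were chosen with earlier results of these data known, and the lists were written from general knowledge. Replicate numbers do not pair the libraries: deviations of libraries with the same number had r of -0.145 to 0.0581. Within groups the counts of any pair of libraries were 4.04 to 35.8 times noisier per gene than sampling alone gives, so none was counted as a copy. The steps were checked on simulated counts.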

Additional observations from a re-analysis of the deposited data

Results flagged for a closer look

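The effects of the clones against the shared WT libraries differed at all 15 mitochondrial mRNAs and rRNAs, tested as 11H1 versus 14B5 with edgeR. Their mitochondrial share was known beforehand to differ, so these calls are not independent support for a difference. The difference on the log2 scale (11H1 minus 14B5) was 2.18 for MT-ND6, 1.35 for MT-ND1, 1.18 for MT-RNR1, 1.17 for MT-ND2, 1.16 for MT-CYB, 1.12 for MT-RNR2, 1.05 for MT-CO1, and 1.02 for both MT-ND4L and MT-ND5. It was 0.91 for MT-ATP6, 0.89 for MT-ND4, 0.79 for MT-CO3, 0.76 for MT-CO2, 0.74 for MT-ATP8 and 0.64 for MT-ND3. Since 63.7% of all genes differed between the clones, a difference at a mitochondrial gene is not unusual in this comparison, and the clone and its KO cannot be told apart.

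The ratio of MT-RNR2 to MT-RNR1 per length had a sample far from the others among the 6 KO libraries. The gap of 14B5 library 2 (4.34) to its neighbour was 0.751 of the range, above the limit for 6 samples; 27 such checks were made, and chance gives about 1 in 20.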

How the results depend on the processing

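With the libraries scaled on their mitochondrial total, members called fell to 1 in 11H1 versus WT and 0 in 14B5 versus WT, and 7 in 11H1 versus 14B5 (4 higher, 3 lower); this scaling removes the size of the pool by construction and moved the median log2FC of all genes to -0.78, 0.24 and -1.01. Called values that turned under it were, in 11H1 versus WT, MT-ATP6 (-0.20), MT-CO2 (-0.22), MT-CO3 (-0.23), MT-ND4 (-0.17), MT-RNR1 (-0.12) and MT-RNR2 (-0.13), and, in 11H1 versus 14B5, MT-ATP6 (-0.0873), MT-ATP8 (-0.28), MT-CO2 (-0.24), MT-CO3 (-0.21), MT-ND3 (-0.37) and MT-ND4 (-0.11). With no filter 7 members were called in 14B5 versus WT, and the 3-group fit called 4 in KO versus WT; the cause was not tested. The share of 11H1 exceeded that of 14B5 by 3.10 points with the mRNAs only and the rRNAs left out of the total. Leaving out each library gave 8 to 15 members called in 11H1 versus WT, 2 to 9 in 14B5 versus WT, 15 in 11H1 versus 14B5 and 0 for the pooled clones. The share differences then ran from 2.39 to 3.64, -1.32 to -0.0768, 3.58 to 3.89 and 0.537 to 1.78 points. With the replicate block 13, 4, 15 and 0 members were called; the numbers do not pair the libraries. Of 1065 values of single genes under all alternatives 988 kept their side of the threshold, 40 lost and 25 gained a call, and 12 called values turned. Uncalled values among the 988 could change sign, such as MT-CO1 in 14B5 versus WT (log2FC = -0.17, and 0.13 without WT library 1). Depth was not the limit for the mRNAs and rRNAs, and the tRNAs could not be compared. The limits that remain are 1 WT library that stands apart, clones without an unedited clone, and an unknown strand setting.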
